A study of Mus musculus with 4 samples.

Results

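The genes described here make, carry and load the peptides that cells show on MHC class I molecules. They are 32 genes out of the 55385 measured, chosen by symbol and not by their values, and all 32 passed the filter on low counts. By step they are 1 regulator (Nlrc5), B2m with 8 heavy chains, 4 genes of peptide transport and loading, 1 trimming peptidase, 3 chaperones of the endoplasmic reticulum (ER), 3 constitutive and 3 immune proteasome subunits, 3 proteasome activator subunits and 5 factors tied to cross-presentation. They were measured by CITE-seq, which reads RNA and barcoded surface antibodies from each cell, in spleens of untreated C57BL6 mice (genotype WT, steady state). Splenic dendritic cells (DCs) from 2 mice were enriched and then sorted as CD64-negative, CD11c+ MHCII+ cells. Conventional DCs of type 1 (cDC1), conventional DCs of type 2 (cDC2) and a share of random live cells were pooled before loading. The study has 1 group with 2 libraries, cell classes are compared inside each library, and the sort set the number of cells per class.

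MHC class I molecules show peptides of a cell's own proteins to CD8 T cells. The proteasome cuts the proteins, TAP1 and TAP2 pump the peptides into the ER, and a loading complex of tapasin, calreticulin and ERp57 fits them onto a heavy chain bound to beta-2 microglobulin. Interferon replaces the catalytic subunits of the proteasome with those of the immunoproteasome, and NLRC5 switches on class I genes in the nucleus. Cross-presentation is the route by which DCs, cDC1 above all, put proteins taken up from other cells onto class I.

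Surface lineage came from antibody UMIs (cDC1: at least 2 XCR1 UMIs and over 2 times the CD172a UMIs; cDC2: the reverse). Stage came from RNA UMIs of Ccr7, the receptor that guides DCs to lymphatic tissue, and Fscn1, an actin bundling protein of mature DCs. Immature cells had 0 UMIs of both genes, intermediate cells at least 3 of Ccr7 and under 3 of Fscn1, and mature cells at least 3 of both. Immature cDC1 numbered 5162 cells in library 1 and 7829 in library 2, intermediate cDC1 153 and 172, and mature cDC1 119 and 157. Immature cDC2 numbered 1377 and 1531, intermediate cDC2 276 and 265, and mature cDC2 79 and 77. Plasmacytoid DCs (pDCs, the main interferon-producing DCs) numbered 131 and 149, T cells 773 and 666, B-lineage cells 191 and 232 and NK cells 325 and 458. Levels are CPM (a gene's UMIs relative to all RNA UMIs of its class and library, with TMM factors), paired values give library 1 and then library 2, and all tests are edgeR's quasi-likelihood test with Benjamini-Hochberg adjustment over all genes tested and 2 libraries per class. The labels do not say whether the libraries are separate mice. The p-values reflect how class differences varied between the libraries, after the mean difference between libraries was removed. This spread was estimated jointly over the classes of a fit and is possibly of technical origin.

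The 8 cDC1 markers summed to 4840.2 and 5202 CPM in immature cDC1, 2366 and 3141 in mature cDC1 and 896 and 999 in immature cDC2. In mature cDC2 they summed to 1034 and 1562, above immature cDC2 in both libraries, so this class was less cleanly separated from cDC1. The 6 cDC2 markers summed to 454 and 411 in immature cDC2, 119 and 137 in mature cDC2 and no more than 10.1 in any cDC1 class. The 9 mature DC markers, which include both gate genes, went from 337 and 281 to 15219 and 13456 in cDC1 and from 211 and 199.6 to 11264 and 10156 in cDC2. Mature cDC1 cells were shallower than immature cDC1 cells (median 5553 and 5724 RNA UMIs against 9091.5 and 8077). The 5 red pulp macrophage genes summed to 39.1 and 40.4 in immature and 239 and 236 in mature cDC1, carried by Vcam1 (159.8 and 177) and Spic (68.0 and 48.1), while C1qa stood at 1.58 and 1.12. The 2 neutrophil genes summed to 1461 and 2038 in immature cDC2 and 40.6 and 42.3 in mature cDC2. The part of these markers in the results was not tested.

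Most heavy chain genes, the TAP genes and the gene of tapasin lie on chromosome 17 in the MHC region. RefSeq windows of 300 bases (250 before the start to 50 after it, GRCm38.p6) were found for 28 of the 32 genes, and 6 are shown because they belong to genes that moved together (H2-K1, H2-D1, H2-Q7, B2m, Tap1) or to a heavy chain gene that was not called in maturation (H2-M3). They are H2-K1 at chr17:34000298-34000597 (minus strand, the upstream of 2 listed windows), H2-D1 at chr17:35262844-35263143, H2-Q7 at chr17:35438905-35439204, H2-M3 at chr17:37269984-37270283, B2m at chr2:122147437-122147736 and Tap1 at chr17:34187306-34187605 (all plus strand). Capitals mark matches on either strand to an NF-kB type motif of 10 letters, to the ISRE type motif of interferon regulatory factors, to TTCNNNGAA (GAS type, for STAT factors), to TGACGC (X2 type) and to CCAAT (Y type, ATTGG on the other strand), and no 2 matches overlap in a window.
H2-K1: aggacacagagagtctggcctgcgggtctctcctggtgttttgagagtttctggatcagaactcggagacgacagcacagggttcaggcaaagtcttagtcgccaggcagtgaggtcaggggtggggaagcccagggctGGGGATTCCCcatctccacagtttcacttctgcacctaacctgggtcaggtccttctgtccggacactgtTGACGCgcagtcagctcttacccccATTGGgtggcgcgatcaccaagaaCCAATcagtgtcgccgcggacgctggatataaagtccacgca
H2-D1: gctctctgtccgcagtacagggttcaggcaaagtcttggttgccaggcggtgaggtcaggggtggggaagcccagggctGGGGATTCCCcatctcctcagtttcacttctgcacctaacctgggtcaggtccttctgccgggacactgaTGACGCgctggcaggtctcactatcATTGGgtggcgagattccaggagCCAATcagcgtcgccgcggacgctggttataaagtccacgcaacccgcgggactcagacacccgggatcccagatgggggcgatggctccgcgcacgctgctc
H2-Q7: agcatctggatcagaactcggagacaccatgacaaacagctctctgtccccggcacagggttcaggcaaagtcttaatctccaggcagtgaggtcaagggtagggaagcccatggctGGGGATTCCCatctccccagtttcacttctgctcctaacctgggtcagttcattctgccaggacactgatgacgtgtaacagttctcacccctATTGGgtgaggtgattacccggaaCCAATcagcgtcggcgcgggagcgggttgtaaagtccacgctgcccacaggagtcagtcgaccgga
H2-M3: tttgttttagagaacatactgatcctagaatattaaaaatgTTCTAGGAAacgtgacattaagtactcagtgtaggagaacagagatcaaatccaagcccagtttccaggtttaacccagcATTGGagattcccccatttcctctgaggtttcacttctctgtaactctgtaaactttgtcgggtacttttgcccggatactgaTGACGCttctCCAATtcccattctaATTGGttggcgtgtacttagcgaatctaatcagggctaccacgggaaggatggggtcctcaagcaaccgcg
B2m: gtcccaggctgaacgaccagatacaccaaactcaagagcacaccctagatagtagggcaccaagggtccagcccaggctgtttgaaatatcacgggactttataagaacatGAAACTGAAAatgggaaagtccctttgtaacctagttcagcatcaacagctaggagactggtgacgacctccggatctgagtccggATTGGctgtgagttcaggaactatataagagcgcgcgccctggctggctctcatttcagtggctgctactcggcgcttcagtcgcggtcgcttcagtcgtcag
Tap1: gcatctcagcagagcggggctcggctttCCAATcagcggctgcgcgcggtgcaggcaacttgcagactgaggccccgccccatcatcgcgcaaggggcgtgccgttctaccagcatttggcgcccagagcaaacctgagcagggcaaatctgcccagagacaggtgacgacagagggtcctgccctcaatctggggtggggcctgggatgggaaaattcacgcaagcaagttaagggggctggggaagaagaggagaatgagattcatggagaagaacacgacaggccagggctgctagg
The NF-kB type motif was found in the windows of H2-K1, H2-D1, H2-Q6 and H2-Q7, 4 of 28 (14.3%), against 0.104% of all 27025 windows. These 4 are related heavy chain genes whose windows share nearly the same bases around the match. They are therefore not 4 independent finds, and no enrichment is read from this share. TGACGC was found in 7 of 28 (25.0%) against 7.50% of all, the ISRE type motif in 6 of 28 (21.4%) against 3.49%, CCAAT in 19 of 28 (67.9%) against 37.9%, and TTCNNNGAA in 2 of 28 (7.14%) against 8.47%. Related heavy chain genes are also among the matches of TGACGC (H2-K1, H2-D1, H2-Q4 and H2-M3), of the ISRE type motif (H2-T22 and H2-T23) and of CCAAT (every heavy chain gene of the list). These matches are not independent either, and no enrichment is read from these shares. A further NF-kB type motif was found in 0 of 28 and in 0.0888% of all windows. The Tap1 and Psmb9 genes run away from each other with starts 226 bases apart, so their windows share 275 bases. The CCAAT matches of both genes are the same bases, counted once for each gene. A match describes letters in a window and not a bound site. Nlrc5, Tap2, Tapbpl and Psmb7 were not matched.

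The comparison of mature with immature cDC1 asks which steps of the pathway moved when cDC1 gained Ccr7 and Fscn1. Of the 32 genes 17 rose and 6 fell, while 51.6% of the 10070 genes tested were called in either direction (24.1% higher, 27.5% lower). The median log2 fold change was 0.63 over the 32 genes and -0.18 over all genes tested. B2m, 7 of the 8 heavy chains and all 4 transport and loading genes rose, and the ER chaperones Calr and Pdia3 fell. Of the 6 catalytic proteasome subunits 1 rose (Psmb10) and 1 fell (Psmb5). The summed level of the 32 genes went from 13696 and 14272 CPM to 28826 and 26699.

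**Figure D1:**
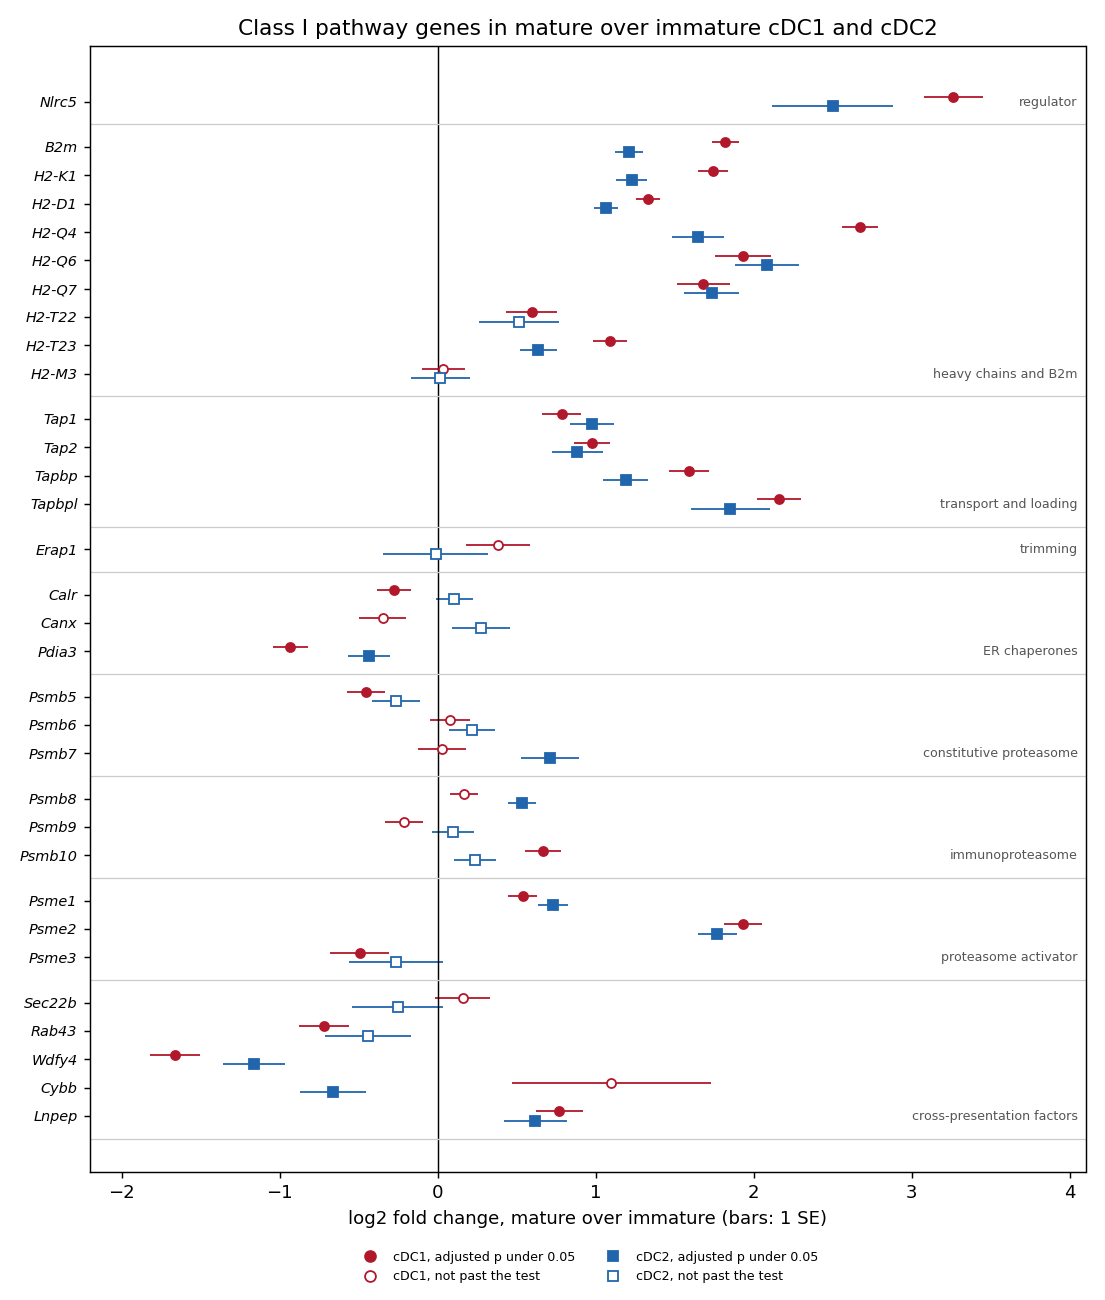
Log2 fold change of mature over immature cells for the 32 genes, ordered by step, in cDC1 (red circles) and cDC2 (blue squares), with bars of 1 SE; filled symbols passed an adjusted p of 0.05. Nlrc5 and the heavy chains lie to the right of 0 in both lineages except H2-M3 (open symbols near 0), and Wdfy4 and Pdia3 lie to the left.

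The regulator Nlrc5, the transactivator of class I genes, stood at 17.6 and 24.1 CPM in immature and at 236 and 172 in mature cDC1 (log2 3.26, SE 0.19, adjusted p = 1.7e-12). This was the largest of the 32 fold changes in cDC1. B2m, the light chain common to all class I molecules, went from 1644 and 1679 to 6446 and 5328 (log2 1.82, SE 0.09, adjusted p = 7.5e-14). H2-K1 and H2-D1 encode the classical heavy chains K and D that present peptides to CD8 T cells. H2-K1 went from 1275 and 1575 to 4796 and 4685 (log2 1.74, SE 0.10, adjusted p = 9.5e-13), and H2-D1 from 1779 and 1825 to 4759.7 and 4333 (log2 1.33, SE 0.08, adjusted p = 1.6e-12). In all 4 genes both mature libraries were above both immature libraries. H2-D1 rose less than B2m, and its ratio to B2m UMIs was 1.08 and 1.09 in immature and 0.738 and 0.813 in mature cDC1.

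The Qa genes H2-Q4, H2-Q6 and H2-Q7 encode nonclassical heavy chains. H2-Q4 went from 38.3 and 43.3 to 275 and 249.6 (log2 2.68, SE 0.11, adjusted p = 7.9e-15), the steepest rise among the 8 heavy chains of the list. H2-Q6 went from 71.3 and 85.9 to 296 and 303 (log2 1.93, SE 0.18) and H2-Q7 from 234 and 318 to 840.0 and 913 (log2 1.68, SE 0.17). Of the T region genes H2-T23, whose product Qa-1 binds the NKG2 receptors of NK cells, went from 265 and 243 to 593 and 491 (log2 1.09, SE 0.11, adjusted p = 1.6e-08). H2-T22, a ligand of some gamma delta T cells, rose less, from 54.8 and 62.9 to 93.3 and 86.2 (log2 0.60, SE 0.16, adjusted p = 0.0035), and a lineage gate of 4 UMIs ended that call (log2 0.32, adjusted p = 0.25). H2-M3, which presents formylated bacterial peptides, stood at 85.7 and 69.5 and then 101 and 61.6, ranges that overlap, and was not called. Thus 8 of the 9 genes of this step rose, and their summed level went from 5446 and 5902 to 18200.5 and 16451. Heavy chain genes are near-identical copies in places, and reads that fit several genes could be lost or split in counting, so levels of single heavy chains are uncertain.

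All 4 genes of transport and loading rose. Tap1 and Tap2 encode the peptide pump of the ER, and Tap1 went from 267 and 323 to 492 and 520.4 (log2 0.78, SE 0.12, adjusted p = 1.1e-05). Tap2 went from 142 and 122 to 282 and 238 (log2 0.98, SE 0.12, adjusted p = 2.7e-07). Tapbp encodes tapasin, which bridges TAP and the heavy chain, and Tapbpl encodes TAPBPR, which edits the bound peptides. Tapbp went from 199.5 and 226 to 668 and 614 (log2 1.59, SE 0.13, adjusted p = 5.2e-10), and Tapbpl from 49.3 and 50.2 to 245 and 204 (log2 2.16, SE 0.14, adjusted p = 1.4e-11). No mature library overlapped an immature library in any of the 4 genes. Erap1, the peptidase that trims peptides in the ER, stood at 31.7 and 30.8 in immature and 42.7 and 39.2 in mature cDC1 and was not called. A p that misses the threshold does not show that its level was equal.

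The ER chaperones ran the other way. Pdia3 encodes ERp57, the partner of tapasin, and fell from 636 and 599 to 323 and 325 (log2 -0.93, SE 0.11, adjusted p = 3.8e-07). Calr encodes calreticulin and went from 1052 and 1005 to 840.0 and 856 (log2 -0.28, SE 0.11, adjusted p = 0.033). The Calr call was lost with RLE scaling (log2 -0.18, adjusted p = 0.17), with DESeq2 (0.16) and with the stricter lineage gate (0.19). Canx encodes calnexin, stood at 198 and 185 and 134 and 163, and was not called. All 3 therefore had lower levels in both mature libraries, while tapasin, the partner of calreticulin and ERp57 in the loading complex, was higher.

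Of the 6 catalytic proteasome subunits 4 were not called. The immune subunits Psmb8, Psmb9 and Psmb10 (LMP7, LMP2 and MECL-1) replace the constitutive Psmb5, Psmb6 and Psmb7, in that order. Psmb10 rose from 154 and 162 to 240.4 and 261 (log2 0.66, SE 0.11, adjusted p = 4.6e-05). Psmb8 stood at 1369 and 1399 in immature and 1536 and 1574 in mature cDC1, and Psmb9 at 983 and 1015 and 862 and 861, and neither was called. Psmb9 stood lower in both mature libraries, while its neighbour Tap1, whose start lies 226 bases away, rose. Psmb5 fell from 178 and 177 to 122 and 137 (log2 -0.45, SE 0.12, adjusted p = 0.0036), a call the lineage gate of 4 UMIs ended (adjusted p = 0.11). Psmb6 stood at 274 and 266 and 289 and 281, Psmb7 at 181 and 164 and 195 and 160.0, and neither was called. As UMI ratios of immune to constitutive partner, Psmb8 to Psmb5 went from 7.68 and 7.92 to 12.6 and 11.5 and Psmb10 to Psmb7 from 0.853 and 0.985 to 1.24 and 1.63. Psmb9 to Psmb6 went the other way, from 3.59 and 3.81 to 2.98 and 3.06.

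The activator subunits moved apart. Psme1 and Psme2 encode the alpha and beta chains of PA28, the cap that opens the proteasome and favours class I peptides, and Psme3 encodes the nuclear PA28 gamma. Psme2 went from 469 and 465 to 1874 and 1683 (log2 1.93, SE 0.12, adjusted p = 8.4e-12). Psme1 went from 1209 and 1235 to 1839.7 and 1707 (log2 0.54, SE 0.09, adjusted p = 3.5e-05). The ratio of Psme2 to Psme1 UMIs was 0.388 and 0.377 in immature, 0.581 and 0.575 in intermediate and 1.02 and 0.986 in mature cDC1, so counts of both chains came close to each other only at the mature stage. Psme3 fell from 48.3 and 47.6 to 30.1 and 36.9 (log2 -0.49, SE 0.19, adjusted p = 0.030), a call lost with RLE scaling (adjusted p = 0.084), DESeq2 (0.16) and the lineage gate of 4 UMIs (0.80).

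Of the 5 factors tied to cross-presentation 2 fell, 1 rose and 2 were not called. Wdfy4, a BEACH domain protein that cDC1 need to cross-present cell-borne antigen, fell from 611 and 674 to 188 and 218 (log2 -1.66, SE 0.16, adjusted p = 1.1e-08). Rab43, a small GTPase with a role in cross-presentation by mouse cDC1, fell from 91.9 and 114 to 49.0 and 73.9 (log2 -0.72, SE 0.16, adjusted p = 0.00051). Both mature libraries lay below both immature libraries in each gene. Lnpep encodes IRAP, an endosomal trimming peptidase, and rose from 46.6 and 47.3 to 79.1 and 80.6 (log2 0.77, SE 0.15, adjusted p = 0.00016). Sec22b, a vesicle SNARE, stood at 41.2 and 37.0 and 52.2 and 36.9 and was not called. Cybb, the catalytic chain of the phagosomal NADPH oxidase, stood at 2.42 and 3.59 and 6.33 and 6.71 and was not called either.

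Intermediate cDC1, which had Ccr7 but little Fscn1, already showed much of this change. Of the 32 genes 14 were higher and 2 lower than in immature cDC1, against 31.2% of all genes tested called in either direction (16.5% higher, 14.7% lower). Nlrc5 stood at 96.0 and 100.1 (log2 2.23, SE 0.20, adjusted p = 7.5e-09), B2m at 3020.4 and 2896 (log2 0.83, SE 0.09) and H2-K1 at 2455 and 2671 (log2 0.85, SE 0.10). These lay between the immature and the mature levels in both libraries. Tap1 stood at 449.6 and 505 (log2 0.70, SE 0.12, adjusted p = 8.6e-05), close to its mature level. Lnpep stood at 99.6 and 87.5 (log2 0.99, SE 0.13, adjusted p = 2.0e-06), above its mature level in both libraries. Tapbpl rose by log2 1.26, Psme2 by 0.90, Tap2 by 0.79 and Tapbp by 0.76. The genes lower than in immature cDC1 were Pdia3 (450.5 and 475, log2 -0.42, SE 0.11, adjusted p = 0.0049) and H2-M3 (53.8 and 53.8, log2 -0.52, SE 0.13, adjusted p = 0.0046). Wdfy4 at 602 and 638, Rab43 at 113 and 120.2 and Psmb10 at 187 and 197 were not called at this stage. The H2-Q7 call was lost under 5 alternatives, the Psme1 call under 3 and the H2-M3 call with a stage threshold of 2 UMIs (log2 -0.29, adjusted p = 0.10).

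Over bins of Ccr7 UMIs in all surface cDC1, 7 of the 32 genes rose at every step in both libraries (B2m, H2-K1, H2-D1, H2-Q6, H2-Q7, Tapbp and Psme2), 1 fell at every step (Pdia3) and 24 did neither. These values describe an order in marker level, with no test. The same count was not made over all genes, so whether 7 of 32 is many is not known. Cells with 1 to 2 Ccr7 UMIs lay near cells with 0, with log2 differences of 0.03 and 0.02 for B2m. At 3 to 9 UMIs B2m was 0.70 and 0.81 above cells with 0 and Nlrc5 1.78 and 1.99, and at 30 UMIs or more 1.80 and 1.57 and 3.19 and 2.80. Nlrc5 in library 1 had its highest value at 10 to 29 UMIs (3.52 and 2.41). H2-Q4 went on rising, from 1.06 and 0.85 at 3 to 9 UMIs to 2.71 and 2.52 at 30 or more. Wdfy4 was at 0.07 and -0.11 at 3 to 9 UMIs, -0.60 and -0.67 at 10 to 29 and -1.11 and -1.12 at 30 or more. Psmb9 was at 0.28 and 0.26 at 3 to 9 UMIs and -0.17 and -0.22 at 30 or more, and Rab43 was below 0 in both libraries at 30 or more alone (-0.98 and -0.53). The higher levels of Nlrc5 and of the heavy chains other than H2-M3 and H2-T22 were thus present at lower Ccr7 counts than the lower levels of Wdfy4 and Rab43. Median depth ran from 9107 and 8085 RNA UMIs with 0 Ccr7 UMIs to 6084 and 6281.5 with 30 or more.

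**Figure D2:**
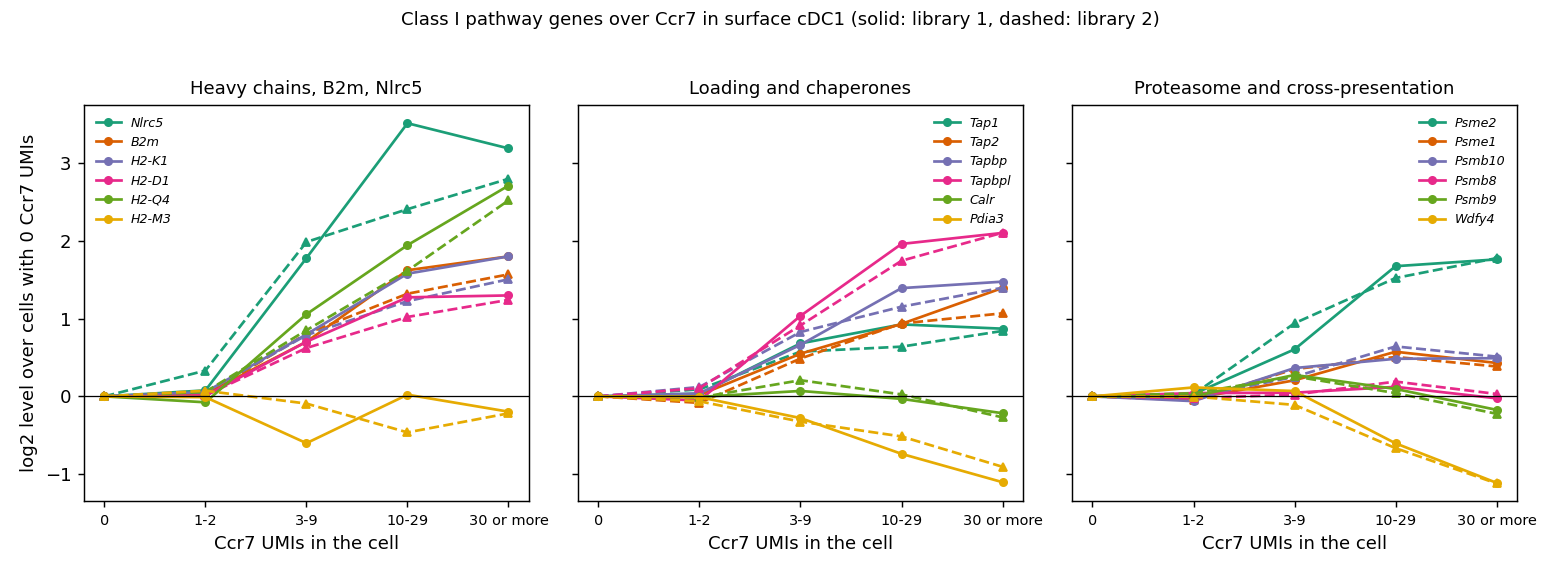
Log2 level over cells with 0 Ccr7 UMIs (vertical axis) in surface cDC1 binned by Ccr7 UMIs per cell (horizontal axis), with library 1 solid and library 2 dashed. Nlrc5, B2m, H2-K1, H2-D1, H2-Q4 and Tapbp are higher from 3 to 9 Ccr7 UMIs on, while H2-M3 is at -0.60 and -0.09 there. Wdfy4 is near 0 at 3 to 9 UMIs and falls to -1.11 and -1.12 at 30 or more.

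The same stage difference was measured in cDC2. Of the 32 genes 17 rose and 3 fell in mature over immature cDC2, against 24.5% of all genes tested called in either direction (13.5% higher, 11.0% lower). B2m went from 2028 and 2146 to 5046 and 4627 (log2 1.21, SE 0.09, adjusted p = 3.9e-10), and H2-K1 from 1599 and 1963 to 4169 and 4129 (log2 1.23, SE 0.10, adjusted p = 1.6e-09). Nlrc5 went from 11.4 and 16.1 to 93.7 and 61.8 (log2 2.50, SE 0.38, adjusted p = 2.9e-05). Both mature cDC2 libraries were above both immature ones in each of these genes, as in cDC1. H2-D1, H2-Q4, H2-Q6, H2-Q7 and H2-T23 also rose, by log2 1.06, 1.65, 2.08, 1.73 and 0.64. Tap1, Tap2, Tapbp and Tapbpl rose by 0.98, 0.88, 1.19 and 1.85, and Psme1 and Psme2 by 0.73 and 1.77. Transport, loading and PA28 thus rose in both lineages. Psmb8 rose from 806 and 902 to 1149 and 1324 (log2 0.53, SE 0.09, adjusted p = 9.5e-05), and Psmb7 from 110.3 and 108 to 212 and 143 (log2 0.71, SE 0.18, adjusted p = 0.0062). Wdfy4 fell from 295 and 287 to 112 and 149.7 (log2 -1.16, SE 0.19, adjusted p = 8.0e-05), and Pdia3 from 264 and 267 to 190.5 and 202 (log2 -0.44, SE 0.13, adjusted p = 0.019). Cybb fell from 243 and 261 to 190.5 and 127 (log2 -0.66, SE 0.21, adjusted p = 0.022), and Lnpep rose from 64.4 and 56.3 to 96.8 and 87.9 (log2 0.62, SE 0.20, adjusted p = 0.027). The Pdia3 call was lost with a stage threshold of 5 UMIs (adjusted p = 0.32) and with doublets kept (0.10), the Cybb call also with DESeq2 (0.10) and the Lnpep call under 5 alternatives.

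The difference between both stage changes was itself tested. It was called for 3 of the 32 genes, all larger in cDC1, against 7.32% of all genes tested called (5.08% higher in cDC1, 2.23% lower). These were H2-Q4 (log2 1.03, SE 0.18, adjusted p = 0.00079), B2m (log2 0.61, SE 0.12, adjusted p = 0.0022) and H2-K1 (log2 0.51, SE 0.13, adjusted p = 0.019). All 3 stood lower in immature cDC1 than in immature cDC2, and above mature cDC2 in both libraries once mature. Between the mature lineages H2-K1 was not called, and the calls of B2m and H2-Q4 were lost under 5 and 4 alternatives. The stage changes of the other 29 genes, including Nlrc5, Tap1, Wdfy4 and Psmb8, were not called different between the lineages. The H2-K1 call was lost with doublets kept (log2 0.37, adjusted p = 0.097) and without the library term (0.079), and the H2-Q4 call with the lineage gate of 4 UMIs (log2 0.62, adjusted p = 0.084).

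Before maturation most processing and loading genes were higher in cDC1, and B2m and a pair of heavy chains were lower. Of the 32 genes 19 were higher and 6 lower in immature cDC1 than in immature cDC2, against 47.1% of all genes tested called (25.2% higher, 21.9% lower). All 3 ER chaperones, all 4 transport and loading genes, all 3 activator subunits and all 3 constitutive subunits were called higher in cDC1. The Psmb6 call was lost under 4 alternatives, the Psmb5 call under 2 and the Psme3 call under 1 (library totals). Pdia3 stood at 636 and 599 in cDC1 and 264 and 267 in cDC2 (log2 1.22, SE 0.11, adjusted p = 2.2e-09), and Calr at 1052 and 1005 and 519 and 533 (log2 0.97, SE 0.10, adjusted p = 6.7e-08). Tap1 was at 267 and 323 against 142 and 157 (log2 0.98, SE 0.12, adjusted p = 3.4e-07). In the immunoproteasome Psmb9 was at 983 and 1015 against 482 and 534 (log2 0.98, SE 0.12, adjusted p = 4.7e-07) and Psmb8 at 1369 and 1399 against 806 and 902 (log2 0.70, SE 0.09, adjusted p = 5.1e-07), while Psmb10 was lower in cDC1 (log2 -0.27, adjusted p = 0.037), a call lost under 4 alternatives. In each of these genes the libraries of the lineages did not overlap. Psme1 was higher by log2 0.82, Psme2 by 0.44 and Psme3 by 0.40. B2m was lower in cDC1 (log2 -0.33, SE 0.09, adjusted p = 0.0029), as were H2-K1 (log2 -0.32, a call lost with the stage gate on thinned cells) and H2-Q4 (log2 -0.48). Of the heavy chains H2-T22 alone was higher in cDC1 (log2 0.29, adjusted p = 0.032), a call lost under 7 alternatives. Nlrc5 was higher in cDC1 (log2 0.60, SE 0.19, adjusted p = 0.011), a call lost with DESeq2 (adjusted p = 0.19) and with library totals (0.053).

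Among the cross-presentation factors Wdfy4 was higher in immature cDC1 (611 and 674 against 295 and 287, log2 1.14, SE 0.14, adjusted p = 6.5e-07), as was Rab43 (91.9 and 114 against 49.4 and 59.0, log2 0.92, SE 0.10, adjusted p = 7.9e-08). Lnpep was lower in cDC1 (log2 -0.36, SE 0.10, adjusted p = 0.0038). Cybb had the widest gap of the 32 genes, 2.42 and 3.59 in cDC1 against 243 and 261 in cDC2 (log2 -6.36, SE 0.17, adjusted p = 3.2e-18). Sirpa, which encodes the CD172a protein used to gate cDC2, stood at 1.15 and 1.74 and 149.6 and 145, so no Cybb expression in cDC1 is read from its few UMIs, which free RNA can give.

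Between mature cells of both lineages, of the 32 genes 16 were higher and 1 lower in mature cDC1 than in mature cDC2, against 12.3% of all genes tested called (6.74% higher, 5.55% lower). Tapbpl stood at 245 and 204 in cDC1 and 106 and 111 in cDC2 (log2 1.04, SE 0.22, adjusted p = 0.0023), Tap2 at 282 and 238 and 147 and 130.2 (log2 0.91, SE 0.16, adjusted p = 0.00039) and Tapbp at 668 and 614 and 393 and 312 (log2 0.86, SE 0.14, adjusted p = 0.00027). The transport and loading genes were thus higher in cDC1 at both stages, and Tap1 was too (log2 0.78). Nlrc5 was higher (log2 1.36, SE 0.30, adjusted p = 0.0033), but not with doublets kept (log2 0.84, adjusted p = 0.056). Psme1, Psme2, Psmb9, Calr and Pdia3 were higher by log2 0.62, 0.60, 0.67, 0.58 and 0.72. A stage threshold of 5 UMIs ended the calls of Psmb9 (log2 0.40, adjusted p = 0.14), Psme2 (0.077) and Pdia3 (0.082), and the gate on thinned cells that of Psmb9 (0.060). B2m (0.28), H2-D1 (0.32), H2-Q4 (0.55), H2-T23 (0.43) and Psmb8 (0.33) were called higher as well, and each lost the call under 4 or more alternatives. With library totals as the scaling, 11 of the 32 genes were called, and with a stage threshold of 5 UMIs 9 were. Wdfy4 kept a lead in cDC1 (188 and 218 against 112 and 149.7) at an adjusted p of 0.049 that 5 alternatives took above 0.05. Cybb was lower (log2 -4.60, SE 0.43, adjusted p = 1.4e-07).

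Against immature cDC1, T and NK cells had higher levels of most heavy chains and lower levels of most processing genes. Of B2m and the 8 heavy chains 6 were higher in each, and H2-T23 and H2-M3 were lower in both. With the stage gate on thinned cells the calls of B2m and H2-T22 in T cells and of B2m and H2-D1 in NK cells were lost, and with doublets kept that of B2m in T cells (adjusted p = 0.059). In T cells 10 of the 32 genes were higher and 17 lower (59.8% of all genes tested called, 32.5% higher and 27.4% lower), and in NK cells 8 were higher and 17 lower (50.7%, 25.7% higher and 25.0% lower). H2-K1 stood at 2492 and 2337 in T cells (log2 0.77, SE 0.09, adjusted p = 3.1e-07) and 3026 and 3249 in NK cells (log2 1.14, SE 0.10, adjusted p = 9.4e-10), above immature cDC1 in every library. H2-Q7 stood at 808 and 776 in T cells and 1082 and 1071 in NK cells (log2 1.54 and 1.98), levels near those of mature DCs. Psmb9 was at 262 and 315 and 221 and 344 (log2 -1.80 and -1.83), and Tap1 at 112 and 126 and 86.3 and 130.1 (log2 -1.31 and -1.44). All 3 constitutive subunits, all 3 ER chaperones, Psmb8, Psme1 and Psme2 were also lower in both cell types. Psmb10 ran against its immune partners, at 202 and 202 in T cells (log2 0.36) and 236 and 242 in NK cells (log2 0.60). Nlrc5 stood at 28.5 and 24.8 in T cells and 20.7 and 15.4 in NK cells and was not called. The NK calls of H2-T23, Psmb5 and Psmb6 were lost with RLE scaling and with library totals, which raised the median of all genes in NK cells to 0.08 and 0.27.

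Wdfy4 stood at 62.1 and 103 in T cells and 56.6 and 89.4 in NK cells. As a share of the immature cDC1 level this was 10.2% and 15.3% in T cells, where Xcr1 and Clec9a, cDC1 genes that T cells should lack, stood at 6.17% and 11.4% and at 8.70% and 13.4%. The median T cell had 3085 and 2896 RNA UMIs. Without the T cells that had at least 2 XCR1 antibody UMIs, Wdfy4 stood at 22.4 and 45.6 (log2 -4.28 against immature cDC1, and -2.98 with them). Xcr1 went from 30.9 and 66.0 to 11.4 and 15.0 and Clec9a from 25.9 and 45.4 to 10.3 and 16.0, so all 3 genes were lower without those cells. No Wdfy4 expression by T cells is read from these values, and what carries the cDC1 genes into the T cell class was not tested. Psmb9 at 26.6% and 31.1% and Tap1 at 41.9% and 38.9% of the immature cDC1 level lay above those shares, and without those cells stood at 213 and 261 and 97.3 and 108.

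B-lineage cells and pDCs came with more cDC1 signal. Of B-lineage cells 27.7% and 26.3%, and of pDCs 37.4% and 43.0%, had at least 2 XCR1 antibody UMIs, against 6.99% and 11.6% of T cells, and the pDC class held 3974 and 4079 CPM of the 8 cDC1 markers. With that gate 15 of the 32 genes differed in pDCs (5 higher, 10 lower, 17.0% of all genes tested called, 9.44% higher and 7.60% lower) and 14 in B-lineage cells (6 higher, 8 lower, 29.4% of all genes tested, 15.9% higher and 13.5% lower). Stricter gates, chosen after seeing the data, asked for under 2 XCR1 UMIs and, in pDCs, at least 3 Siglech UMIs. They left 69 and 68 pDCs, in which Xcr1 stood at 7.87 and 16.8, and 138 and 171 B-lineage cells, and called 22 of the 32 genes in pDCs and 19 in B-lineage cells. In pDCs 10 were higher and 12 lower, against 14.9% and 17.2% of all 10085 genes tested, and in B-lineage cells 5 were higher and 14 lower, against 16.3% and 18.8%. The strict B-lineage cells held Jchain at 22900.2 and 17516 CPM, a gene of plasma cells, whose part in these values was not tested.

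In the strict pDCs Wdfy4 stood at 55.1 and 61.6 and Rab43 at 7.87 and 14.0, against 611 and 674 and 91.9 and 114 in immature cDC1 (log2 -3.46 and -3.24). With the wider gate these were 365 and 394 and 57.0 and 77.6, and the cDC1 marker sum of that gate is given above. Its part in those values was not tested. Cybb was at 682 and 697 (log2 7.82), the highest of all classes in both libraries. H2-Q7 stood at 971 and 980.2 (log2 1.84), H2-T23 at 543 and 400.5 (0.89) and H2-K1 at 2367 and 2462 (0.77). These heavy chains were thus higher in pDCs than in immature cDC1, while Psmb9 at 367 and 308 (log2 -1.56) and Psme1 at 554 and 737 (-0.93) were lower. Nlrc5 in the strict pDCs was at 2.62 and 36.4, far apart between the libraries. In strict B-lineage cells B2m stood at 2686 and 2045, Cybb at 224 and 227, Psmb9 at 320.3 and 329 and Wdfy4 at 119.9 and 123. Of these Cybb and B2m were above and Psmb9 and Wdfy4 below immature cDC1 in both libraries. The H2-D1 call of B-lineage cells (log2 0.22) did not hold in the strict gate (log2 -0.023).

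**Figure D3:**
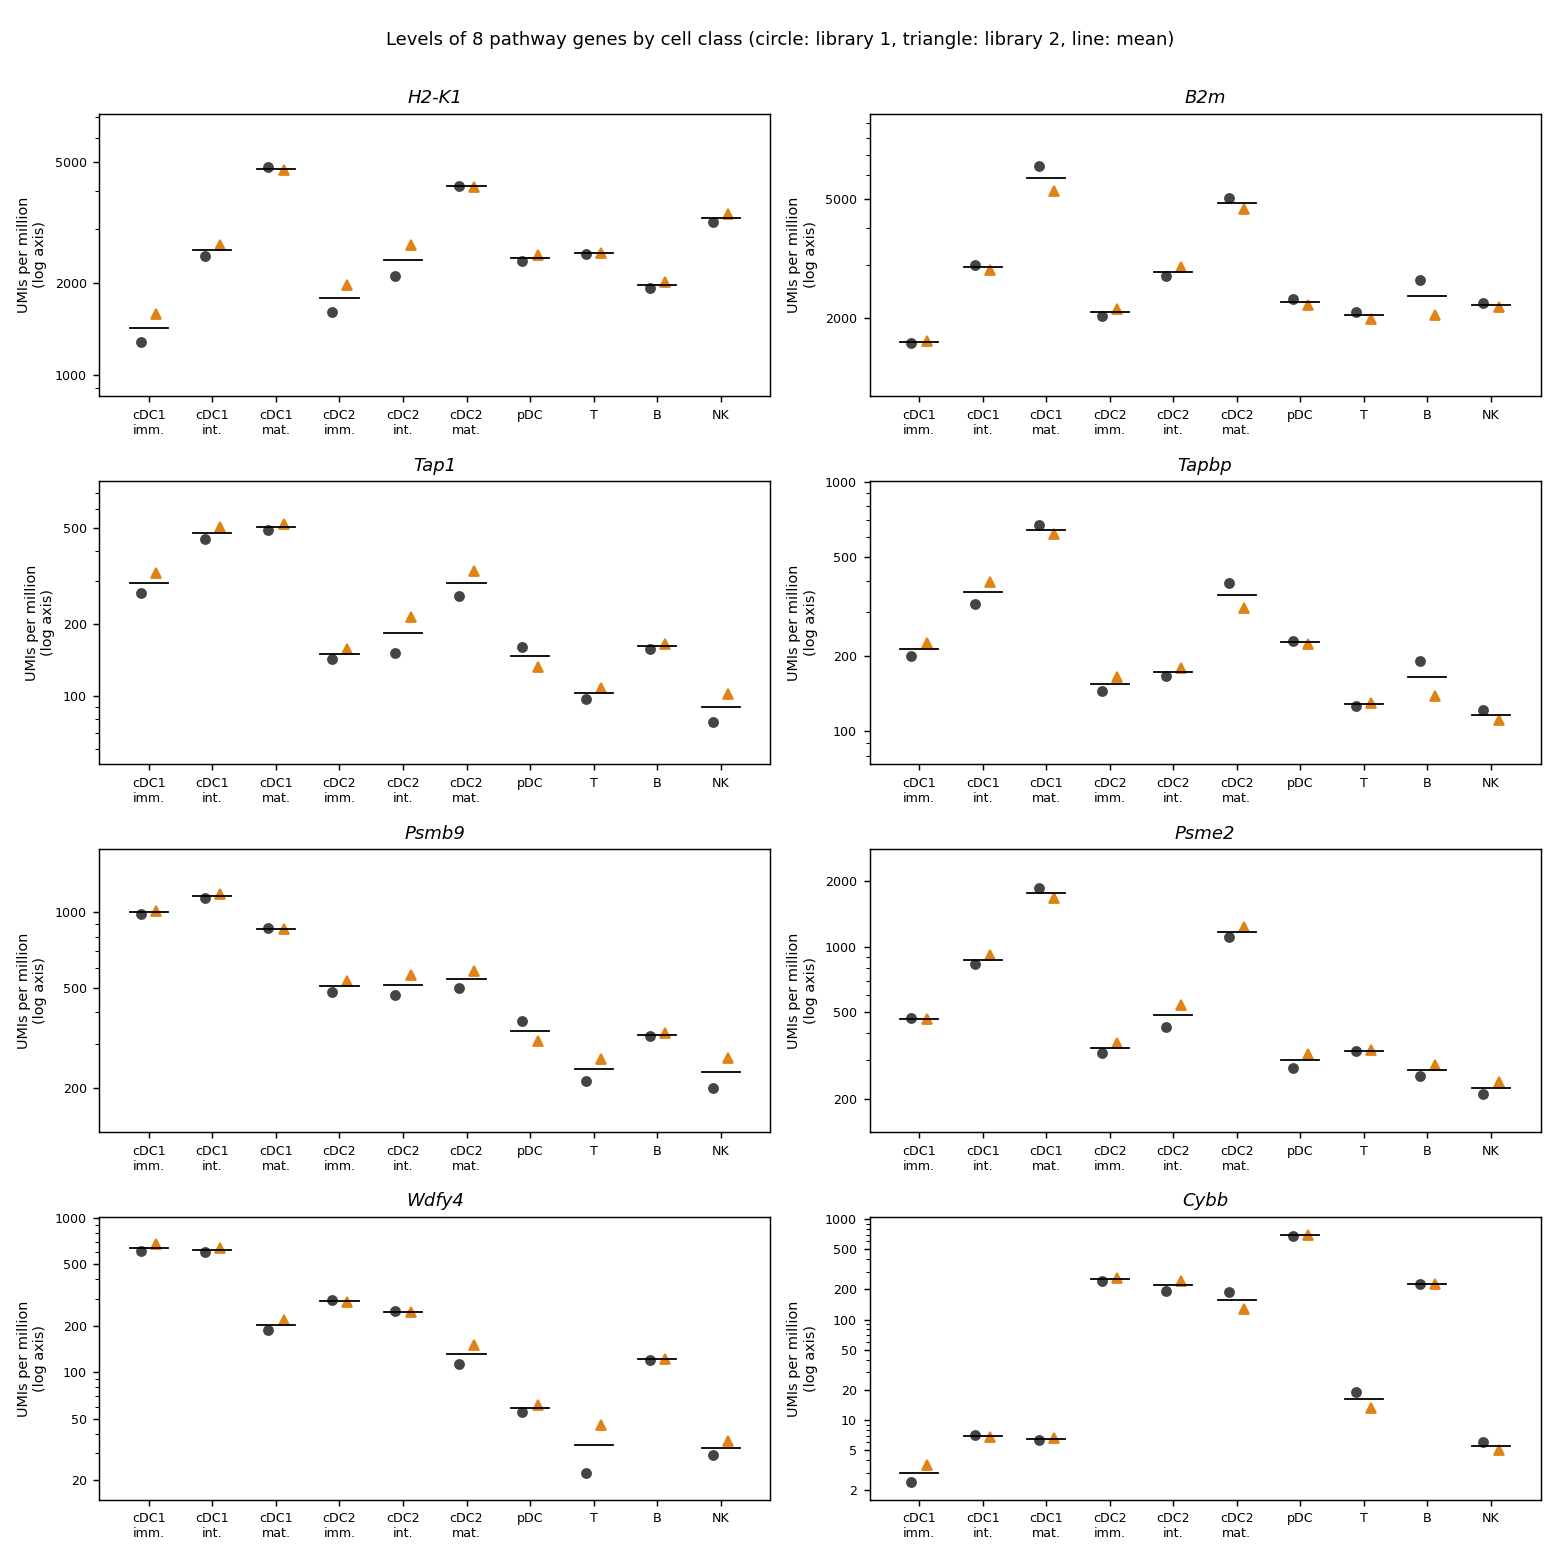
CPM (log axis) of 8 pathway genes in each cell class, with circles for library 1, triangles for library 2 and lines for the mean; pDC, T, B and NK classes use the stricter gates. H2-K1, B2m, Tapbp and Psme2 are highest in mature cDC1, Wdfy4 in immature and intermediate cDC1 and Cybb in pDCs.

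**Figure D4:**
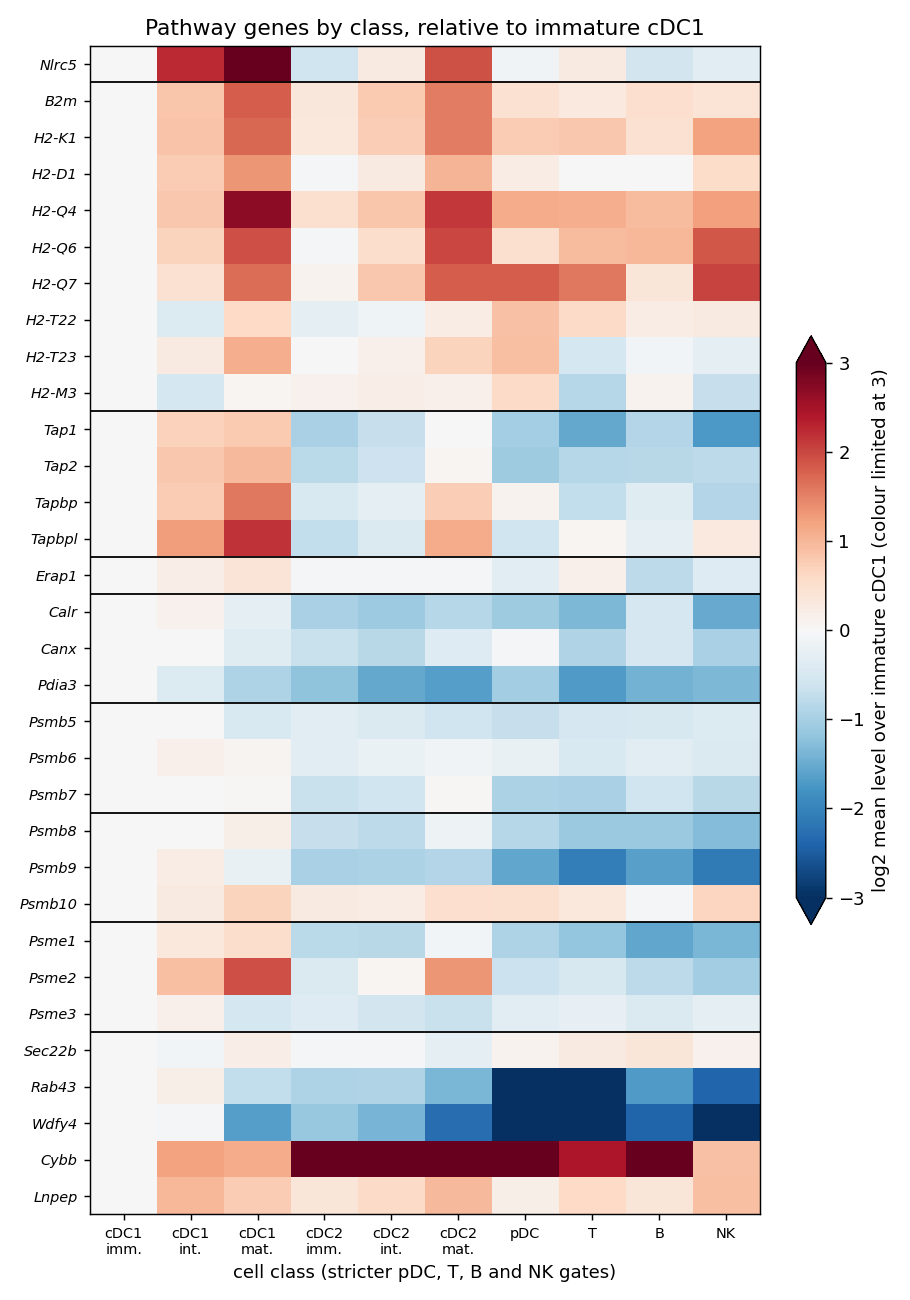
Log2 mean level of the 32 genes in each class over immature cDC1, with rows ordered by step and colour limited at 3; pDC, T, B and NK classes use the stricter gates. The H2-K1 and H2-Q4 rows are red in every other class, while Tap1, Pdia3 and Psmb9 are blue in pDCs and lymphocytes.

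Within immature cDC1 the genes were also compared between the 5% of cells with most UMIs of 9 interferon-stimulated genes, none of them among the 32, and the rest. Levels here were scaled within their own set of classes. Of the 32 genes 5 rose and 0 fell, against 7.48% of 9024 genes tested (4.65% higher, 2.83% lower). Nlrc5 stood at 30.1 and 34.6 in interferon-high and 15.0 and 20.6 in other cells (log2 0.86, SE 0.17, adjusted p = 0.0015). Psmb10 was at 179.7 and 193 against 135 and 139.8 (log2 0.44, SE 0.09, adjusted p = 0.0014), Tapbpl at 58.0 and 64.1 against 43.2 and 43.3 (log2 0.50, SE 0.11, adjusted p = 0.0046) and Tap1 at 294 and 375 against 235 and 280.0 (log2 0.38, SE 0.08, adjusted p = 0.0038). Tapbp rose by log2 0.31 (adjusted p = 0.040), a call lost under 4 alternatives, and the Tap1 call was lost without the library term (adjusted p = 0.11). B2m and the 8 heavy chains were not called by edgeR, and at an unadjusted p under 0.05 B2m alone passed. H2-K1 was at 1226 and 1512 against 1129 and 1379 and B2m at 1613 and 1735 against 1454 and 1465. With the top 2% of cells 11 of the 32 genes were called, and without the library term 3 were.

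The panel held an antibody to the class I heavy chain H2-Kb, which gave 1 UMI over all cells, so no class I protein could be compared with its RNA. CD1d, a class I-like molecule that presents lipids, was measured in all classes. Its antibody made up 221 and 164 of 10000 antibody UMIs in immature cDC1 and 137 and 109 in immature cDC2 (log2 0.82, SE 0.13, adjusted p = 0.00011 over 170 antibodies), against 46.5 and 46.9 in T cells. In mature cells it made up 208 and 152 in cDC1 and 120 and 136 in cDC2. TMM scaling put mature cDC1 above immature cDC1 (log2 0.41, adjusted p = 0.029) where these shares put it below, so no direction is given. Of the 9 isotype controls 8 were used, and these reached 3.03 per 10000 at most.

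Other genes of the pathway, from 7 lists of 81 genes, are given for mature over immature cDC1, each list with up to 3 of its most changed genes. Over all genes tested 24.1% rose and 27.5% fell in mature cDC1, and 13.5% and 11.0% in mature cDC2. Of the 18 proteasome regulatory particle genes 12 rose and 0 fell in cDC1, and in cDC2 1 rose and 1 fell. The difference of stage changes was called for 1 of the 18 genes, so no lineage difference is read from these counts. Mature cDC2 sums held 337425 and 306857 RNA UMIs, against 763307 and 1021323 in mature cDC1. Psmd7 went from 121 and 111 to 272 and 265 (log2 1.22, SE 0.14, adjusted p = 2.0e-07), and Psmd11 (log2 0.84) and Psmd1 (0.78) rose as well. Of the 11 remaining core particle genes 4 rose and 0 fell, led by Psma6 (log2 0.55), Psma5 (0.54) and Psma7 (0.42), the last 2 and Psmd1 each losing the call under 1 alternative. Of 10 ER chaperone and translocation genes 0 rose and 8 fell in cDC1, and 3 fell in cDC2. The difference of stage changes was called for 3 of these 10 genes, all lower in cDC1. Hsp90b1, the ER chaperone GRP94, fell from 837 and 759.8 to 210.4 and 235 (log2 -1.84, SE 0.11, adjusted p = 5.2e-12), and the disulfide isomerases Pdia4 and Pdia6 fell by log2 -2.03 and -1.73. All 10 of these genes were higher in immature cDC1 than in immature cDC2, like Calr, Canx and Pdia3, against 25.2% of all genes tested. Of 6 cytosolic peptidases Npepps rose (log2 1.36), while Lap3 (-1.91) and Thop1 (-2.46) fell, Thop1 with 1 UMI in each mature library. The Thop1 call was lost with DESeq2 (adjusted p = 0.083), with the lineage gate of 4 UMIs (0.15) and with doublets kept (log2 -1.03, adjusted p = 0.17).

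Of 10 regulators 6 rose and 3 fell. Irf1, the transcription factor that interferon gamma induces and that acts on class I genes, went from 35.8 and 47.6 to 628 and 671 in cDC1 (log2 3.96, SE 0.12, adjusted p = 3.2e-17) and from 49.9 and 58.5 to 203 and 159 in cDC2 (log2 1.75, SE 0.18, adjusted p = 1.6e-07). Intermediate cDC1 had 138 and 132, between immature and mature cells. Ciita, the class II counterpart of Nlrc5, fell from 279.9 and 309 to 64.9 and 88.4 (log2 -1.94, SE 0.20, adjusted p = 4.8e-08), so both transactivators ran in opposite directions. Rfxank, a subunit of the RFX complex that both proteins need, rose from 6.19 and 6.76 to 20.6 and 22.4 (log2 1.73, SE 0.33). Of 11 other class I and class I-like genes 5 were tested, of which 3 rose and 1 fell. H2-M2, a heavy chain gene of the M region, had 11 and 19 UMIs in all immature cDC1 (0.233 and 0.292 CPM) and stood at 218 and 118 in mature cDC1 (log2 9.13, SE 0.50, adjusted p = 6.1e-13). In cDC2 it went from 2.05 and 6.15 to 571 and 202 (log2 6.49, SE 0.45, adjusted p = 2.2e-10). Cd1d1 rose (log2 1.37) and Fcgrt, the neonatal Fc receptor, fell (-1.48).

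Of 15 other cross-presentation genes 14 were tested, and 7 rose and 3 fell in cDC1. Ifi30, the lysosomal thiol reductase GILT, went from 420.5 and 397 to 2438 and 2095 (log2 2.47, SE 0.14, adjusted p = 1.1e-12). Clec9a, the receptor of cDC1 for dead cells, fell from 298 and 339 to 88.6 and 124 (log2 -1.59, SE 0.19, adjusted p = 3.0e-07), as Wdfy4 and Rab43 did. Rac2, a GTPase of the NADPH oxidase, fell by log2 -1.63 in cDC1 and -1.86 in cDC2. The remaining oxidase subunits, named here for their relation to Cybb after their values were seen, went apart. Cyba rose by log2 1.24 and Ncf1 by 1.30, while Ncf4 fell (-1.47).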

How the data were processed

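The authors deposited unnormalized UMI counts of genes and antibodies in 1 matrix for both libraries; per the file headers its writer was Cell Ranger 3.1.0. The submitters' processing notes name mm10 as the build and, as tools, Seurat 3.1.4, Cell Ranger and STAR. Any equalising of depth is not stated. Libraries are numbered by barcode suffix, and no label ties a suffix to a labelled replicate. The libraries held 99617992 and 129565040 RNA UMIs, and 61 barcode sequences occurred in both (99 kept cells).

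Of 31790 barcodes 28142 cells were kept (at least 500 genes, 1000 RNA UMIs, under 10% mitochondrial), after 546 and 1064 doublets (4.30% and 6.24%) were removed with Scrublet in scanpy 1.11.5. DCs had at least 20 UMIs of 4 class II genes and under 3 UMIs of T, B, NK, pDC and macrophage markers. Of 24152 such cells 4969 fitted neither surface lineage. T, B, NK and pDC classes had at least 3 UMIs of their own markers and at most 1 of each other list. For each class the UMIs of a library were added up, and edgeR 4.0.16 tested these sums (quasi-likelihood test after TMM scaling and filterByExpr, with library as a block because every class was cut from the same libraries, two-sided) in R 4.3.3, leaving out 22 gate genes. All 10 classes shared the fit. The interferon comparison left out 9 further genes. The test was run on simulated counts with known changes in mature cDC1. It recovered 82% of changes of log2 1 and 99% of changes of log2 2, and 4.74% of its calls were false. The simulated spread was taken from the same fit, so this check cannot show that the spread estimated from 2 libraries is right. Alternatives were RLE scaling, library totals, DESeq2 1.42.0, no low-count filter, other gates and single libraries.

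All 32 genes are named, and of each other list up to 3 genes with the largest called change. The genes, lists and tests were chosen with earlier results of these data known.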

Additional observations from a re-analysis of the deposited data

Results flagged for a closer look

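The stage change of 3 of the 32 genes differed between the lineages by a test of the difference itself. This edgeR test took mature minus immature in cDC1 minus the same in cDC2. Over all 10070 genes tested 7.32% were called (5.08% higher in cDC1, 2.23% lower). No enrichment among the 32 genes is therefore read from this count. The log2 difference was 1.03 for H2-Q4 (adjusted p = 0.00079), 0.61 for B2m (adjusted p = 0.0022) and 0.51 for H2-K1 (adjusted p = 0.019). In each the rise was larger in cDC1, in both libraries. The H2-K1 call was lost under 2 alternatives and the H2-Q4 call under 1.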

How the results depend on the processing

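Counts of called genes stayed within 1.5 times the reported count under most alternatives. Without the replicate block (no library term) 23 genes were called in place of 23 for mature against immature cDC1, 15 in place of 16 for intermediate cDC1, 20 in place of 20 for cDC2, 23 in place of 25 between immature lineages, 13 in place of 17 between mature lineages, 2 in place of 3 for the difference of stage changes, 12, 26, 12 and 24 in place of 15, 27, 14 and 25 for pDC, T, B-lineage and NK cells, and 3 in place of 5 for interferon-high cells. The counts that moved further included those between mature lineages (11 with library totals, 9 with a stage threshold of 5 UMIs). They also included the difference of stage changes (5 with RLE scaling, library totals or stage thresholds of 2 or 5 UMIs, 7 with only cDC classes in the fit, 8 with DESeq2). For interferon-high cells the counts without the library term (3) and with the top 2% (11) moved further as well. Of the values for single genes 2548 were counted as unchanged, 147 lost the call, 21 moved between libraries and 1 reversed (H2-D1 in B-lineage cells, log2 -0.023 with the stricter gate). Where a test was run, unchanged meant the same direction and call. For single libraries, which have no call, it meant a fold change within the SD of both libraries around the reported value. Most single-library values meet that rule by how it is set, so they say little about robustness. The cause of these shifts was not tested. TMM left the median log2 fold change of all genes at -0.18 for mature cDC1, and RLE and library totals at -0.08 and -0.37. With a single library no test was possible, so single libraries gave fold changes and no counts. Ccr7 bins after thinning to 3000 UMIs left 10 and 7 cells at 30 or more, too few for a value, and mature cDC2, with 79 and 77 cells, had the fewest UMIs of the DC classes.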
